A study of Mus musculus with 3 samples.

Results

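The Hlf and Hhex loci were examined in hematopoietic stem cells of old mice through the peak lists of 2 histone marks. The Hlf locus was taken as chromosome 11 from 90150000 to 90290000 and the Hhex locus as chromosome 19 from 37460000 to 37620000 (build mm9), and every region that overlapped a window was a member. This gave 30 H3K27ac and 16 H3K4me1 regions at Hlf and 9 H3K27ac and 32 H3K4me1 regions at Hhex, of 93413 H3K27ac and 155027 H3K4me1 regions in all. No region crossed a window end. The windows were set by position, and no measured value entered the rule, but the loci were chosen with earlier results of these data known.

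The cells came from bone marrow of C57BL/6 mice aged 24 months and were isolated as SP-KSL-CD150+ cells, a gate for stem cells. Each mark was profiled by chromatin immunoprecipitation sequencing in 1 library, an input library accompanied them, and all 3 are described as technical replicates of biological replicate 1. There was no younger group and no genetic change or treatment in these libraries, the number of animals is not given in the sources used here, and no value below has a replicate check or a p-value. Peak lists name no genes, so the cell type was not checked against marker genes. The most reads at a summit were 48 at either locus, the median summit of the whole list 13 reads for H3K27ac and 20 for H3K4me1, and the weakest called summit 8 and 10 reads.

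Hlf encodes a transcription factor of the PAR bZIP family, a leucine-zipper group that binds DNA in pairs and also includes Dbp and Tef. It is expressed in blood stem cells and lost as they mature, and it is known as a partner in a fusion protein of acute lymphoblastic leukemia. Hhex encodes a homeodomain transcription factor that acts in the early development of endothelium and blood, liver and thyroid, and in the bone marrow it is needed for the formation of lymphoid cells. H3K27ac is an acetylation typical of promoters and enhancers in use. H3K4me1 is a methylation found at enhancers, including ones without acetylation, and it is usually low at the start site of an active gene and present beside it.

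By order in the RefSeq gene table, the nearest protein-coding neighbours of Hlf are Mmd on the side of lower coordinates and Stxbp4 on the side of higher ones, with the long non-coding RNA Gm34850 between Hlf and Stxbp4. Hhex lies between Kif11 and Exoc6, and the long non-coding RNAs 1700122C19Rik and Gm32294 stand between Hhex and Exoc6. That table is on GRCm38.p6, and no mm9 annotation was used here. No region is therefore placed in a promoter, exon or intron, and distances below are measured from region to region.

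The promoters of both genes are shown because each locus had its strongest acetylation in a short stretch without H3K4me1, an arrangement usual at start sites. Whether these stretches hold the promoters was not tested. The sequences run from 250 bases before to 50 bases after the annotated start (RefSeq, GRCm38.p6), for Hlf at chr11:90390868-90391167 on the minus strand and for Hhex at chr19:37434591-37434890 on the plus strand. These are not mm9 coordinates and cannot be set beside those of the regions. Capitals mark matches on either strand to GATAA (the core of GATA factor sites), CCGGAA (an ETS factor core), CANNTG (the E-box), TTANGTAA (the PAR bZIP site) and TAATT (a homeodomain core).
Hlf: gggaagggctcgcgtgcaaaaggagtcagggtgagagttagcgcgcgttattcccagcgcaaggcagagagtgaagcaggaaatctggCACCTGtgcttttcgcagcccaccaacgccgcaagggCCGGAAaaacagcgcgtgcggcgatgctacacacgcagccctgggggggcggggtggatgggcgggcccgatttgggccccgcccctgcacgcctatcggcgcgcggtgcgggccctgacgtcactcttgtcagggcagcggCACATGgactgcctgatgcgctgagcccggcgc
Hhex: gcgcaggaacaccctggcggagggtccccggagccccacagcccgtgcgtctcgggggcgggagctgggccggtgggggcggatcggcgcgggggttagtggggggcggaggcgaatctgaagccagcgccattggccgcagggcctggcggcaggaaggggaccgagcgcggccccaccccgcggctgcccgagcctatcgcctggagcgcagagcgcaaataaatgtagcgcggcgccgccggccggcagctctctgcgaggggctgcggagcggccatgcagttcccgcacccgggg
The Hlf promoter held 1 CCGGAA, from base 126 to 131 of the sequence, and 2 E-boxes, from base 89 to 94 and from base 268 to 273. Among all 32851 RefSeq promoters of this length, 14.9% held CCGGAA and 72.3% an E-box. The Hhex promoter held none of the 5 motifs, and neither promoter held GATAA (25.4% of promoters), TTANGTAA (2.32%) or TAATT (27%). A match is a description of the letters and not a bound site. Both sequences were rich in CpG, with 30 CpG in the Hlf and 37 in the Hhex promoter against a median of 7, and a G and C content of 67.3% and 75.7% against a median of 52.7%.

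Hlf carried a long stretch of closely spaced H3K27ac regions. Neighbouring H3K27ac regions were joined into domains over the distance customary for stitching super-enhancers, which joined gaps of up to 11595 bp at these loci and left apart those of 19915 bp and more. The Hlf domain ran from 90202156 to 90258520, spanned 56.4 kb and held 28 of the 30 H3K27ac regions and 97.2% of the acetylated length in the window. Its 18.8 kb of acetylation, 33.4% of the span, ranked 258 among 30221 domains of the genome. The rank was 122 with a joining distance of 5 kb and 741 when domains were ordered by fold times width. The stretch lay almost wholly on 1 side of the strongest summit: it reached 49.2 kb toward lower coordinates, the direction in which Hlf is read from the minus strand, and 7.2 kb toward higher ones. Of the other 29 H3K27ac summits, 27 lay on the lower side and 2 on the higher side.

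**Figure D1:**
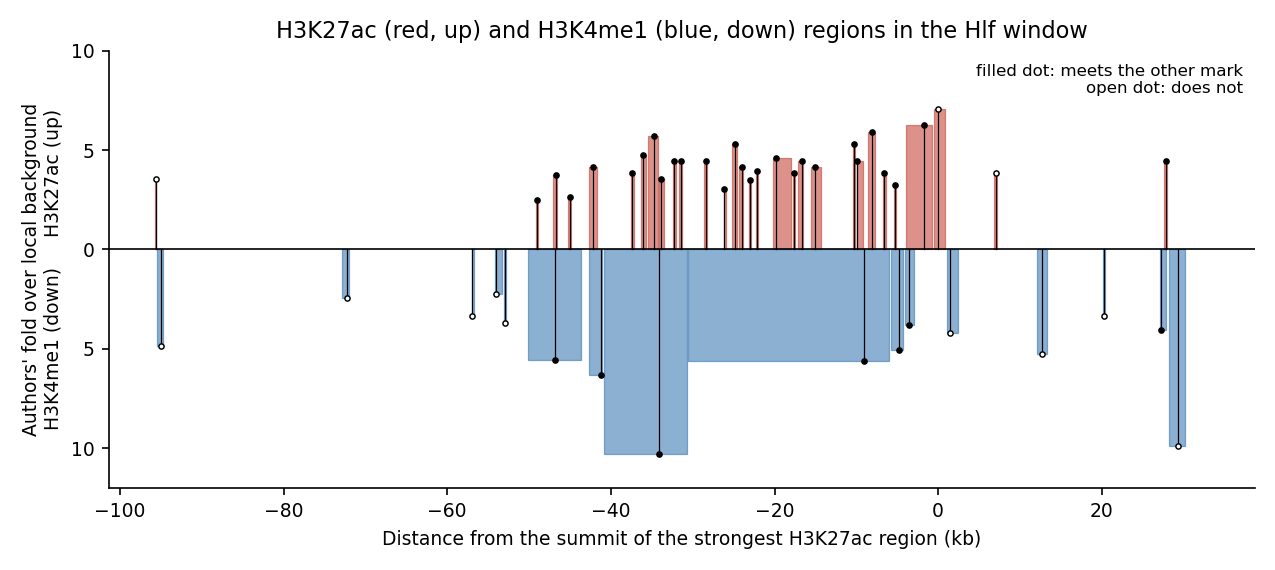
Regions in the Hlf window, with distance from the summit of the strongest H3K27ac region (kb) on the horizontal axis and the authors' fold over local background on the vertical axis, H3K27ac upward and H3K4me1 downward. Each box spans 1 region, the line marks its summit, and a filled dot marks a region that meets the other mark. Acetylated regions crowd the 49990 bp that end just right of 0, above wide H3K4me1 regions, and 2 H3K27ac regions lie to the right.

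Within this stretch the acetylation was broken into many modest regions. From 90202156 to 90252145, over 49990 bp, there were 27 H3K27ac regions covering 18.5 kb, with a median gap of 966 bp and gaps from 198 bp to 4.3 kb. Their fold ranged from 2.51 to 7.09. The fold values are the authors' own and give the summit pileup over the local background. Over all 30 H3K27ac regions of the window the median was 4.15-fold with 14 summit reads, close to the 3.86-fold and 13 reads of the whole list, and 18 of 30 lay above the list's median fold. Their number exceeded that of most of the genome: of 17638 consecutive autosomal tiles of 140 kb, the length of the window, 98.4% had fewer than 30 H3K27ac regions and the median tile had 2. These tiles, and those of 160 kb below, ran on a fixed grid from the start of each autosome. Tiles without any region were kept. The windows were instead set at named genes, so the percentages do not compare them with other gene loci. Of the 30, 14 had a −log10 q of at least 5, or 46.7%, where 41.4% of all H3K27ac regions did.

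The 2 strongest H3K27ac regions of Hlf stood side by side at the end of the stretch with higher coordinates. The first ran from 90250853 to 90252145 (1293 bp) and reached 7.09-fold with 23 summit reads, which placed it above 85.6% of all H3K27ac regions by fold. The second ran from 90247401 to 90250589 and reached 6.27-fold with 26 reads. At 3189 bp it was the widest H3K27ac region of the window. They were 263 bp apart. By fold they were followed by regions from 90242794 to 90243569 (5.91-fold, 19 reads) and from 90215818 to 90217040 (5.73-fold, 21 reads). The fifth place was shared at 5.32-fold and 17 reads by the regions from 90226145 to 90226734 and from 90240862 to 90241134. Exact Poisson 95% intervals, for counting error alone, ran from 14.6 to 34.5 for 23 reads and from 9.9 to 27.2 for 17 reads, so the order among these 6 summits is not fixed at this depth.

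H3K4me1 at Hlf formed a nearly unbroken run under the acetylation. From 90201142 to 90248391, 6 H3K4me1 regions covered 96% of 47.2 kb and were parted by gaps of 198 to 910 bp, and 26 of the 30 H3K27ac regions met one of them. The widest, from 90220765 to 90245318, measured 24554 bp, ranked 17 by width among the 155027 H3K4me1 regions and held the summits of 14 H3K27ac regions of 3.02-fold to 5.91-fold. Beside it, from 90210472 to 90220561, lay the H3K4me1 region of highest fold in the window, 10090 bp wide and 10.3-fold. Both were 10 kb or more, a width reached by 0.295% of the list. Another strong one, from 90208613 to 90210273, reached 6.32-fold with 29 reads. The next in width ran from 90201142 to 90207702 (6561 bp, 5.59-fold), and these 3 regions made up 76.7% of the H3K4me1 length in the window.

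Fold and read number ranked the 2 widest H3K4me1 regions differently. Each had 48 summit reads, more than 98.6% of all H3K4me1 summits. The local background was 3.75 reads at the region of 10.3-fold, equal to the genome-wide level, and 7.73 reads at the widest region, 2.06 times that level, which gave it 5.61-fold. The genome-wide level here is the most frequent local background recovered at called summits. Set against it, the widest region would also reach 10.3-fold. The local background exceeded the genome-wide level by more than 5% at 8 of 16 H3K4me1 summits at Hlf, against 36.8% of the list, and at 9 of 30 H3K27ac summits, against 26.2%. At Hhex the counts were 11 of 32 and 3 of 9. All 9 H3K27ac summits with raised background at Hlf lay inside the stretch of 49990 bp, which held 27 of the 30 H3K27ac regions. Where the local background is raised, fold states the height of a summit over that background and not over the genome-wide level. What the local background was drawn from is not given in the sources used here.

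Most H3K27ac regions of Hlf carried H3K4me1. Of the 30, 27 (90%, exact 95% binomial interval 73.5 to 97.9%) overlapped H3K4me1 by 1 bp or more, where 71.7% of all H3K27ac regions did. The acetylation summit itself lay inside H3K4me1 in 26 of 30, against 58.2% of the list. In the other direction 7 of 16 H3K4me1 regions (43.8%, interval 19.8 to 70.1%) met H3K27ac, against 33.6% of the list, an interval that holds the list's share. The marks shared 15.2 kb, which was 78.4% of the acetylated and 28.3% of the H3K4me1 length in the window. Intervals cover counting error over regions of 1 library pair, and neighbouring regions are not independent. Wide H3K4me1 regions also meet other regions more easily by position alone, and the part of width in the 90% was not tested.

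The 3 H3K27ac regions of Hlf without H3K4me1 included the strongest of all. Besides the 7.09-fold region, they were a region from 90258170 to 90258520 (3.84-fold, 12 reads) and one from 90155569 to 90155784 (3.55-fold, 11 reads) at the far lower end of the window. The last lay 73 bp from an H3K4me1 region of 4.84-fold.

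The strongest acetylation of Hlf sat just beyond the higher end of the H3K4me1 run, in a stretch without H3K4me1. No H3K4me1 region lay between 90248392 and 90252408, a stretch of 4.0 kb. It held the summits of both strongest H3K27ac regions. H3K4me1 resumed 263 bp beyond the 7.09-fold region with a region from 90252409 to 90253775 (4.22-fold, 24 reads). On the lower side it ended in a region from 90247301 to 90248391 (3.79-fold, 17 reads), whose summit lay inside the 6.27-fold H3K27ac region.

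Hhex showed the same arrangement on a smaller scale. Its strongest H3K27ac region ran from 37509391 to 37510030 (640 bp) and reached 8.27-fold with 27 summit reads, above 89.0% of the list by fold. It lay in a stretch of 1.6 kb without H3K4me1, from 37508994 to 37510582, 397 bp from the H3K4me1 region on the lower side (4.94-fold, 23 reads) and 552 bp from that on the higher side (8.0-fold, 37 reads). A smaller H3K27ac region flanked it on each side, from 37508796 to 37509193 (3.55-fold, 11 reads) and from 37510526 to 37510961 (6.80-fold, 22 reads), and both met H3K4me1.

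**Figure D2:**
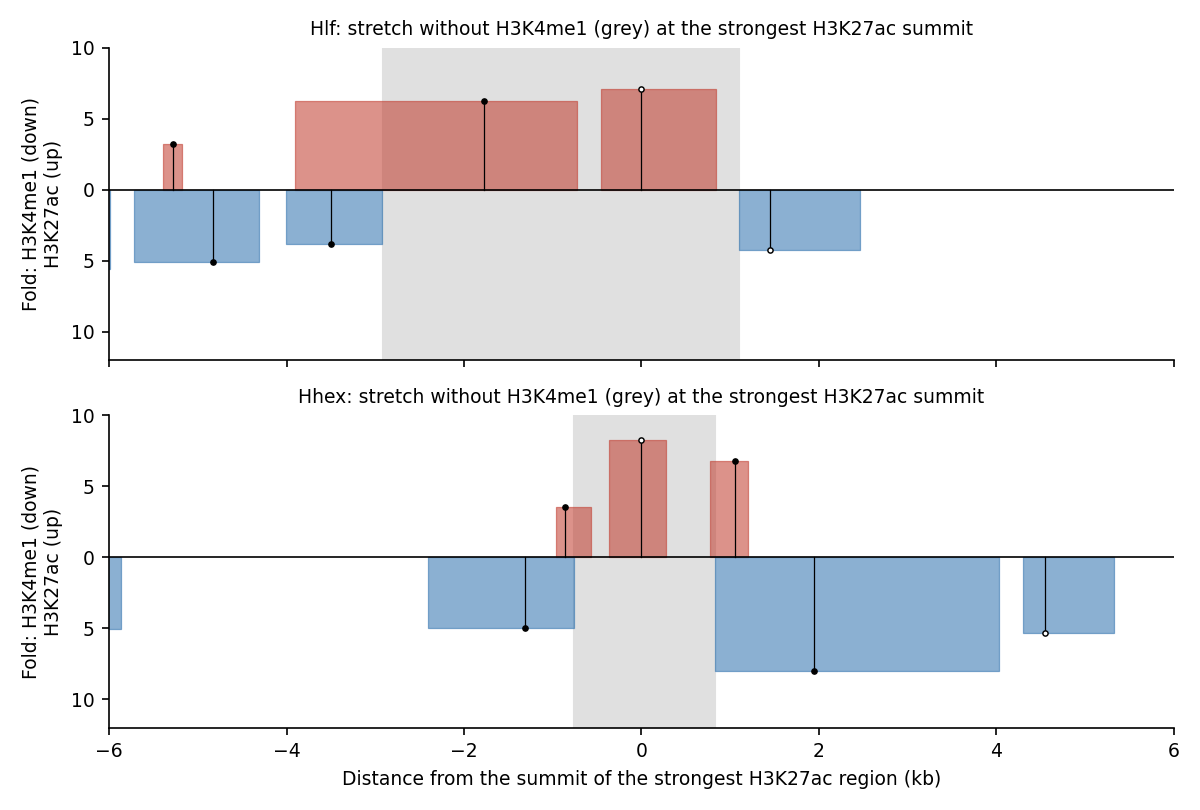
H3K27ac (red, upward) and H3K4me1 (blue, downward) regions within 6 kb of the strongest H3K27ac summit of Hlf (top) and Hhex (bottom), with distance in kb on the horizontal and the authors' fold on the vertical axis. Grey marks the stretch without H3K4me1, 4.0 kb at Hlf and 1.6 kb at Hhex, and the tallest H3K27ac box of each locus stands inside it with an open dot.

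This arrangement is not peculiar to the 2 loci. Among the 10213 H3K27ac regions of 6-fold to under 10-fold, 28.9% had their summit outside H3K4me1 with H3K4me1 within 3 kb on both sides. Fewer met no H3K4me1 region at all while having it within 3 kb on both sides, 4.84%, and the strongest region of Hlf and that of Hhex both belong to these. The 3 kb limit and the fold class were set after the values of these regions had been seen, so the shares are a description.

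Hhex was less acetylated than Hlf and carried more H3K4me1 regions over a smaller share of its window. Its 9 H3K27ac regions covered 4.4 kb, or 2.72% of the window, and its 32 H3K4me1 regions covered 40.9 kb, or 25.5%. At Hlf the marks covered 13.8% and 38.4%. The share covered by H3K27ac was thus 5.09 times as high at Hlf and that covered by H3K4me1 1.5 times, in the same 2 libraries and therefore at the same depth. Both ratios depend on where the windows end. With 20 kb more on each side of both windows they were 1.4 for H3K27ac and 0.947 for H3K4me1: H3K27ac then covered 10.9% at Hlf and 7.83% at Hhex, and H3K4me1 30.7% and 32.4%. With 20 kb less on each side they were 9.07 and 1.91, with H3K27ac on 18.8% and 2.08% and H3K4me1 on 50.1% and 26.3%.

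**Figure D3:**
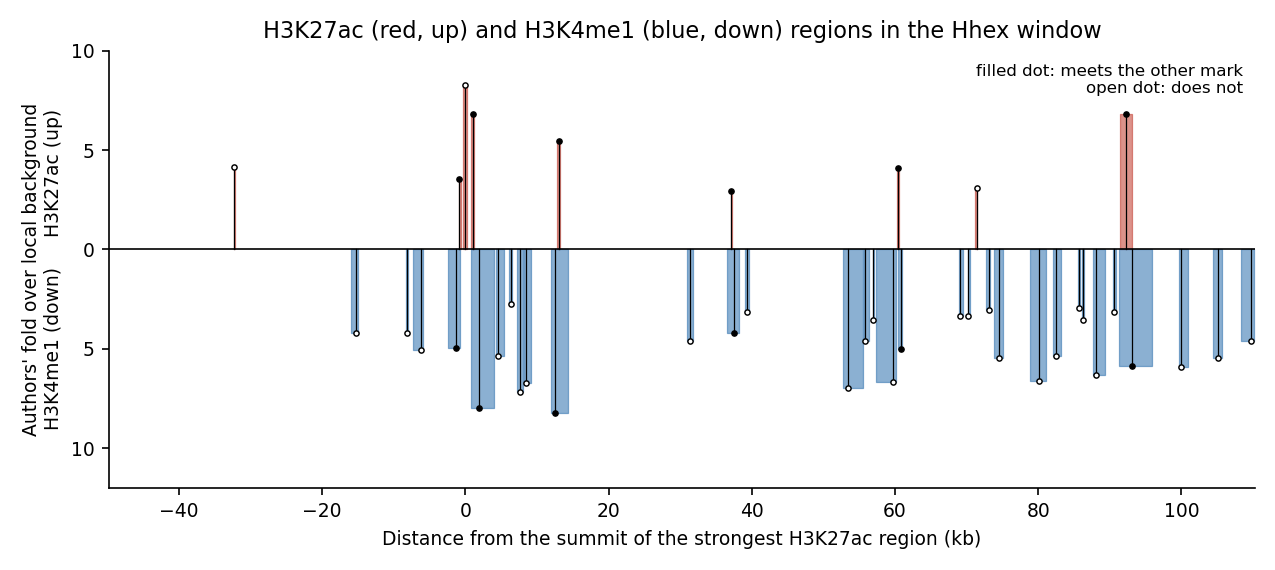
Regions in the Hhex window, drawn with distance from the strongest H3K27ac summit (kb) on the horizontal and the authors' fold on the vertical axis, H3K27ac upward and H3K4me1 downward, a filled dot marking a region that meets the other mark. The 9 H3K27ac regions are scattered, 3 of them at 0, while the 32 H3K4me1 regions extend to the right edge, most with open dots.

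Set against autosomal tiles with at least as much H3K4me1, Hhex had little acetylation. The autosomes were divided into 15432 consecutive tiles of 160 kb, the length of the Hhex window, and 94.3% of them had less H3K4me1 and 73.2% less H3K27ac. Of the 872 tiles with at least as much H3K4me1, 1 had no more H3K27ac than Hhex, and their median was 18 kb against the 4.4 kb of Hhex. Of the 17638 tiles of 140 kb set beside Hlf, 98.4% had less H3K4me1 and 97.9% less H3K27ac. Of the 280 with at least as much H3K4me1, 82 (29.3%) had no more H3K27ac. These sets are one-sided: no tile in them has less H3K4me1 than the window, and many may have more. Tiles with about the same H3K4me1 as the window were not compared separately. The count of such tiles was chosen after the values had been seen. With 20 kb added at each end the Hhex window held 15.7 kb of H3K27ac, and 16 of 287 tiles of 200 kb (5.57%) with at least as much H3K4me1 had no more.

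**Figure D4:**
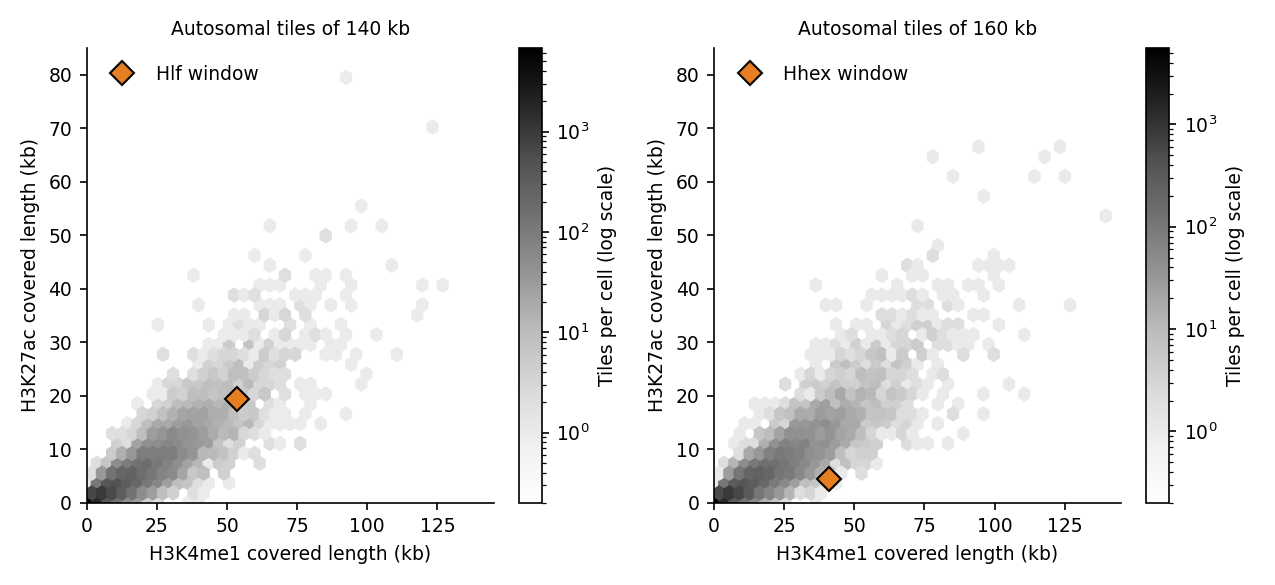
Length covered by H3K4me1 (horizontal, kb) and by H3K27ac (vertical, kb) in autosomal tiles of 140 kb (left) and 160 kb (right), with darker cells holding more tiles on a log scale. The orange diamond marks the Hlf window at 53.7 and 19.4 kb, within the cloud, and the Hhex window at 40.9 and 4.4 kb, at its lower edge.

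Of the 32 H3K4me1 regions of Hhex, 26 met no H3K27ac and 6 did (18.8%, interval 7.21 to 36.4%), against 33.6% of the list, a share that the interval holds. After joining regions of a mark that lay within 1 kb, 41.2% of the 17 joined H3K4me1 regions met H3K27ac. At Hlf the same joining lowered the share from 43.8% to 22.2%, so the order of the 2 loci depends on the joining. The share over the whole list after joining was not computed, so the 33.6% cannot be set beside the joined values. The summits of the 32 regions of Hhex were not weak: the median was 4.97-fold with 23.5 reads, against 4.12-fold and 20 reads in the list. Of the 32, 23 lay above the list's median fold. A −log10 q of at least 5 was reached by 24 of 32, and by 12 of 16 at Hlf, against 63.6% of the list. Of the 8 regions of 6-fold or more, 6 had no H3K27ac, where 28.8% of all such regions had none. The strongest of these 6 ran from 37516947 to 37517747 (7.16-fold, 33 reads), from 37562540 to 37565222 (6.95-fold, 32 reads) and from 37517952 to 37518889 (6.74-fold, 31 reads). The region with most reads, 48, ran from 37567113 to 37569934 at 6.69-fold, where the local background was 1.69 times that of the genome. It met no H3K27ac region, although one began 119 bp beyond its end.

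Of the 5 strongest H3K4me1 regions of Hhex, 4 lay near the strongest acetylation, but those next in fold did not. The highest, from 37521700 to 37524061 (8.21-fold, 38 reads), contained an H3K27ac region from 37522557 to 37522908 (5.47-fold, 20 reads). The second, from 37510583 to 37513786 (8.0-fold, 37 reads), bordered the stretch without H3K4me1. The third and the fifth were those of 7.16-fold and 6.74-fold. All 4 had their summits within 12484 bp of the strongest H3K27ac summit on its higher side, the direction in which Hhex is read. The fourth, of 6.95-fold, lay 53.4 kb away. Next in fold came regions of 6.69-fold, 6.61-fold and 6.33-fold, at 59.8, 80.1 and 88.0 kb. The nearness therefore depends on the cut at 5 regions.

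A second field of H3K4me1 began 50 kb or more beyond that summit on the higher side. From 37562540 to 37619951, over 57.4 kb, there were 19 H3K4me1 regions covering 24.9 kb, with a fold of 2.95 to 6.95. They met 2 of the 3 H3K27ac regions there. The strongest of these acetylated regions ran from 37601118 to 37602792 (6.80-fold, 22 reads), was the widest H3K27ac region of the Hhex window at 1675 bp, and lay inside the widest H3K4me1 region, from 37601042 to 37605686 (4645 bp, 5.89-fold, 38 reads). The others were a region from 37570054 to 37570296 (4.10-fold, 16 reads) and one from 37580973 to 37581202 (3.09-fold, 11 reads), the latter without H3K4me1. The higher end of this field is set by the window. The next H3K4me1 region began 221 bp beyond the window (9.69-fold). Further on, an H3K4me1 region of 10.5-fold from 37628758 to 37643189 met 5 H3K27ac regions.

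Of the 9 H3K27ac regions of Hhex, 6 met H3K4me1 (66.7%, interval 29.9 to 92.5%), and an interval of this width holds the 71.7% of the list as well as the 90% of Hlf. The summit lay inside H3K4me1 in 6 of 9, against 58.2% of the list. The 3 without it were the strongest one, that of 3.09-fold and one from 37477369 to 37477555 (4.14-fold, 13 reads), which stood alone 32.4 kb below the strongest summit. The median of all 9 was 4.14-fold with 16 reads, and 5 of 9, where 41.4% of the list did, reached a −log10 q of at least 5. The acetylated domain around the strongest summit ran from 37508796 to 37522908 with 4 regions and 1.8 kb of acetylation, and ranked 7645 among the 30221 domains.

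**Figure D5:**
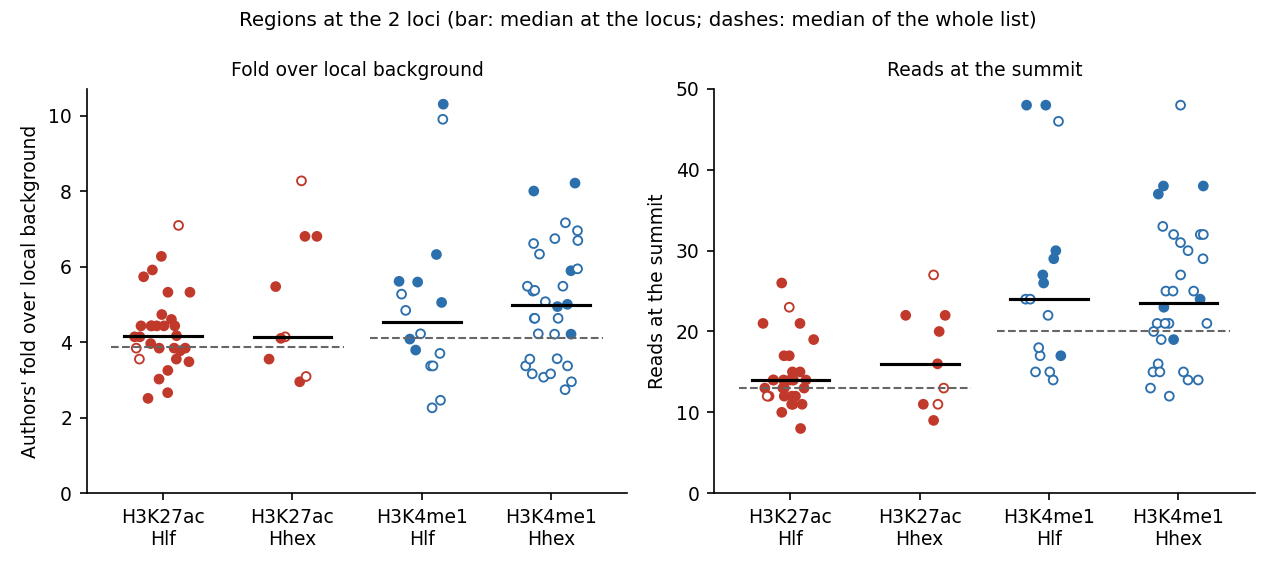
The authors' fold (left) and the reads at the summit (right) of every region at the 2 loci, by mark and locus, filled where the region meets the other mark. Black bars give the median at the locus and dashes that of the whole list, 3.86-fold and 13 reads for H3K27ac and 4.12-fold and 20 reads for H3K4me1. The highest H3K27ac fold of each locus is an open circle.

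Strong H3K4me1 without H3K27ac was also present at Hlf, outside its acetylated stretch. The region from 90279578 to 90281532 reached 9.90-fold with 46 reads, above 98.7% of the list. It lay 29.3 kb from the strongest H3K27ac summit on its higher side and 341 bp from an H3K27ac region of 4.43-fold, from 90278906 to 90279236, which met a weaker H3K4me1 region next to it. Of all H3K4me1 regions, 2.8% were of 9-fold or more, 2 of 16 at Hlf and 0 of 32 at Hhex, and 11.6% of the 4342 in the list had no H3K27ac. An H3K4me1 region of 9.69-fold began 221 bp beyond the Hhex window. The next 2 H3K4me1 regions without H3K27ac at Hlf ran from 90263337 to 90264583 (5.27-fold, 24 reads) and from 90155858 to 90156589 (4.84-fold, 22 reads). In all, 9 H3K4me1 regions of Hlf lacked H3K27ac, and 5 of them lay in the 46.4 kb from 90155785 to 90202155 that held no H3K27ac region.

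In H3K4me1 regions that carried both marks at these loci, the H3K4me1 summit mostly lay outside H3K27ac. The H3K4me1 summit lay inside an H3K27ac region in 2 of the 7 such H3K4me1 regions at Hlf and in 0 of 6 at Hhex, where 50% of all H3K4me1 regions with H3K27ac had it so. At Hlf the 2 were the regions from 90201142 to 90207702 and from 90247301 to 90248391. Of the 3 widest H3K4me1 regions, the 2 others had their summits in short gaps between H3K27ac regions. The distances to the lower and the higher side were 104 and 103 bp at the 10.3-fold region and 112 and 576 bp at the widest. With 13 regions in all, these counts give a coarse share, and the part of region width in it was not tested. Conversely, the H3K27ac summit lay inside H3K4me1 in 26 of 30 H3K27ac regions at Hlf and 6 of 9 at Hhex.

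The neighbourhoods just outside the windows differed. Within 20 kb of the Hlf window there was 1 H3K27ac region, of 2.66-fold, and no H3K4me1 region above 3.37-fold. Within 20 kb of the Hhex window there were 11 H3K27ac regions, among them one of 16.0-fold from 37449692 to 37451497 on the side of Kif11. On the side of Exoc6 they began 803 bp beyond the window and reached 13.0-fold from 37624877 to 37625632 and 13.3-fold from 37627159 to 37629758. These 3, and one of 8.86-fold from 37633658 to 37637228, exceeded every H3K27ac region inside either window. The 12 H3K4me1 regions within 20 kb of the Hhex window included ones of 9.69-fold, 9.48-fold and 10.5-fold on the side of Exoc6. These exceeded every H3K4me1 region inside that window, so the lack of 9-fold H3K4me1 regions at Hhex depends on the window end. Without an mm9 annotation the regions outside the windows are not assigned to a gene.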

How the data were processed

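The deposited peak lists of H3K27ac and H3K4me1, 1 library each, were analysed, and the input library was left aside. Per the submitters' processing notes, the tools included Bowtie2 2.0.6 and MACS2 2.0.10.20131216 and the build was mm9. Peak-calling options, duplicate handling and the control are not given in the sources used here. Per peak, the authors deposited a fold ratio of summit to local background, −log10 p and −log10 q values (lowest −log10 q 1.30 for H3K27ac and 1.31 for H3K4me1), a score of 10 times −log10 q, which was not used, and the summit position in bp from the peak start, the other deposited value. Coordinates were written counting from 1.

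Summit reads and local background were computed from fold and −log10 p, taking fold as (reads + 1)/(background + 1) and p as a Poisson probability. With whole reads, the deposited −log10 p was returned within 0.001 at all 93413 H3K27ac and all 155027 H3K4me1 summits. The genome-wide background was taken as the most frequent local background recovered at called summits, 2.38 reads for H3K27ac and 3.75 for H3K4me1. It was not measured apart from the peaks. Interval functions and read recovery were tested on simulated data. Regions of different marks met when they overlapped by 1 bp or more. Clopper-Pearson 95% intervals are given for shares and exact Poisson ones for reads. H3K27ac domains used the stitching distance customary for super-enhancers. At each locus and for each mark, the 5 regions of highest fold, the widest, and the H3K27ac and the 3 strongest H3K4me1 regions without the other mark are named. Others named in the text were chosen after their values were seen. The loci and these choices were made with earlier results of these data known. Alternatives changed the overlap rule, the q limit, the number and joining of regions, the windows and the domains. Computations ran in Python 3.11.15 (scipy 1.17.1, numpy 2.4.6, pandas 2.3.3), and figures were drawn with matplotlib 3.10.9.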

Additional observations from a re-analysis of the deposited data

How the results depend on the processing

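Of 72 alternative values, 53 stayed within the counting interval (shares) or within 1.5 times the reported value (counts, ranks and ratios), 18 moved further and 1 reversed. The counting intervals are wide, so a share could stay within one and still change much. For the Hlf H3K4me1 regions with H3K27ac, 22.2% and 62.5% both counted as staying with 43.8%. At a −log10 q of at least 5 in both lists, H3K27ac regions numbered 14 at Hlf and 5 at Hhex, against 30 and 9. At 10 they numbered 2 and 3, and H3K4me1 regions 7 at Hlf and 15 at Hhex, against 16 and 32. At that limit 0% of Hlf H3K27ac regions had H3K4me1 and 0% of its H3K4me1 regions had H3K27ac, where the limit also removed the H3K4me1 region that 1 of the 2 remaining H3K27ac regions met. Joining regions over 1 kb left 15 H3K27ac and 9 H3K4me1 regions at Hlf and 17 H3K4me1 regions at Hhex. It raised the share of Hhex H3K4me1 regions with H3K27ac from 18.8% to 41.2%. At Hlf it lowered that share from 43.8% to 22.2%, so that Hhex then had the higher share. The share over the whole joined list was not computed. With windows lengthened by 20 kb at each end Hhex had 20 H3K27ac regions, the ratio of Hlf to Hhex was 1.4 for the share covered by H3K27ac and turned to 0.947 for H3K4me1, whose share rose at Hhex (25.5% to 32.4%) and fell at Hlf (38.4% to 30.7%), and the share of tiles rose from 0.115% to 5.57%. With windows shortened by 20 kb the H3K27ac ratio was 9.07. The Hlf domain ranked 122 with gaps of up to 5 kb and 741 by fold times width, against 258, and the cause was not tested. The tile alternatives were chosen after seeing the data. No paired analysis was possible because every group consists of 1 library. The weakest called H3K27ac summit had 8 reads, so H3K4me1 without H3K27ac means none detectable at this depth.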
